A study of Brassica oleracea var. italica with 2 samples.

Results

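miR390 and miR391 are related plant miRNA families, and 5 records of them had raw counts among the 169 known miRNA records with counts. Members were taken by name, as every counted record called miR390 or miR391 whatever its species prefix, letter or arm. They are miR390a, miR390b and miR390a* of the miR390 family, and miR391 and miR391* of the miR391 family. The table of known miRNAs lists them as ath-miR390a, ppt-miR390c, gma-miR390a-3p, ath-miR391 and aly-miR391*, after the plant miRNA that each read sequence matched. Another 5 records of miR390 were listed without a count, so 10 of 1400 records carried either number.

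Small RNA was sequenced from shoot apexes of 2 nearly isogenic inbred lines of broccoli (Brassica oleracea var. italica). The heat-tolerant (HT) line 'B295' (library E22) is labelled as high in curd-forming capacity and the heat-sensitive (HS) line 'BR1 op' (library L22) as low. Both lines were 54 days old by the sample labels and were sampled at 22 °C under 18 h of light and 6 h of dark, and no library from another temperature was analysed here. Each line is represented by 1 library, of 27069903 reads for HT and 26253036 reads for HS. Each test below therefore compares 2 libraries and not the genotypes, and no difference has a replicate check. The table holds miRNAs only, so the labelled tissue was not checked against marker genes.

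In land plants, miR390 is loaded into ARGONAUTE7 and guides the cleavage of TAS3 transcripts, from which trans-acting siRNAs (tasiRNAs) are made. These tasiRNAs repress the auxin response factors ARF3 and ARF4, which act in leaf polarity, the timing of vegetative phase change and lateral organ growth. miR391 is known from Arabidopsis and its relatives in the Brassicaceae and resembles miR390 in sequence. A miRNA* is the strand opposite the mature miRNA in the hairpin duplex and is usually the less abundant of the pair.

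The sequences of the counted members are shown because the comparison of the families rests on how they resemble each other. They are the library sequences of the table, 5′ to 3′ in DNA letters, with bases 2 to 8 (the seed) in capitals.
miR390a: aAGCTCAGgagggatagcgcc
miR390b: aAGCTCAGgagggatagcgcc
miR391: tTCGCAGGagagatagcgcca
miR390a*: cGCTGTCCatcctgagtttc
miR391*: aCGGTATCtctcctacgtagc

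miR390a and miR390b had the same 21-nt library sequence and so the same seed, and they differed in the plant miRNA matched, the position and the reads counted. For miR390a the match was exact, and its record listed 31 related names from many species. For miR390b, the matched Physcomitrella sequence differed from the library sequence by G1A, with the miRBase base first and positions counted from the 5′ end. For miR390a*, of 20 nt, the soybean sequence differed by A5G. Both miR391 and miR391*, of 21 nt each, matched without a difference.

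Aligned without gaps, miR390a and miR391 were identical at 16 of 20 facing bases (80.0%). In the next lines the identical bases are in capitals.
miR390a: aagCtCAGGAGgGATAGCGCC
miR391: ttCgCAGGAGaGATAGCGCCa

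The last 9 bases of miR390a, from position 13 to 21, were all shared. The 4 differences were A2T, G3T, T5G and G12A, with the base of miR390a first, its position in miR390a, and then the base of miR391. miR391 was offset by 1 base towards the 3′ end, so the seeds of the families differ although their 3′ parts are alike. The miRNA* sequences were less alike, with 12 of 20 facing bases identical (60.0%).

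The authors placed the reads on the genome sequence of Brassica rapa (version 1.1), a relative of broccoli. Positions are given as in the table, where end minus start equals the length, so that one of the ends is not part of the sequence. The miR390a record lies on chromosome A02, minus strand, from 6427683 to 6427704, and miR390b on A03, minus strand, from 4957524 to 4957545. miR391 lies on the same strand of A03, from 4507101 to 4507122, which is 450.4 kb from miR390b. miR390a* lies on A04, plus strand, from 16501226 to 16501246, and miR391* on A09, minus strand, from 35634204 to 35634225. Gene annotation of this genome was not used here, so these positions are not assigned to genes or exons.

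At all 7 listed positions of miR390 and miR391, the genome sequence was identical to the library sequence or its reverse complement. No record with another sequence was listed within 500 nt of any of these 7 positions. A mature miRNA and its miRNA* were thus never listed on 1 hairpin. The genome was not searched for further positions of these sequences. Whether the counts of a mature record and a miRNA* record compare the arms of 1 precursor therefore cannot be told.

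The 5 records without a count stood at only 2 positions. gma-miR390b and pta-miR390 shared a position on A05, minus strand, from 3490081 to 3490102, with the library sequence of miR390a. Those records are without a value although the sequence itself was counted elsewhere, so a missing count here says nothing about absence. aly-miR390a*, aly-miR390b* and zma-miR390a* shared a position on A10, plus strand, from 8401575 to 8401596. Their sequence differed from miR390a* by G5A and T19C, with the base of miR390a* first, and extended 1 base further at the 3′ end. The bases that differ are in capitals.
miR390a*: cgctGtccatcctgagttTc
miR390* of A10: cgctAtccatcctgagttCca

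Folded against each other without bulges, miR390a and miR390a* paired at 18 of 19 facing bases, 2 of them as G:U pairs, with base 11 of miR390a unpaired. The miR390* sequence of A10 paired with miR390a at 17 of 19 facing bases and left the 2-nt 3′ overhangs of a Dicer-like product on both strands. miR391 and miR391* paired at 15 of 19 facing bases with the same overhangs and no G:U pair. Bases 2, 5, 16 and 19 of miR391 were unpaired.

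The miR390 records had more reads in HT, as known miRNAs had at large, and both miR391 records were lower in HT. miR390a had 87 reads in HT and 59 in HS, while miR390b was read 105 and 66 times. For miR391 the libraries held 2 reads (HT) and 17 reads (HS), against 0 and 12 for its miRNA*.

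In TPM, the reads of a record per 1000000 reads of the library, miR390a stood at 3.21 TPM in HT and 2.25 TPM in HS. That is a fold change (HT/HS) of 1.43, with a 95% confidence interval (CI) of 1.02 to 2.03. The limits of a fold were converted from those of the share of a record's reads that came from HT (exact Clopper-Pearson). All intervals cover counting error only, because each line has 1 library and variation between plants or libraries is not in them. Reads amplified by PCR and carrying no molecular identifier do not count separate molecules, so even the counting error may be understated. Each record was set against all other reads of its library with Fisher's exact test, two-sided. A record was called where the unadjusted p was under 0.001 and the fold over 2. miR390a was not called (p = 0.0382, Fisher's exact test, adjusted p = 0.117 by Benjamini-Hochberg over the 169 records).

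miR390b stood at 3.88 TPM in HT and 2.51 TPM in HS, with a fold change of 1.54 (95% CI 1.12 to 2.13). It was not called either (p = 0.00579, Fisher's exact test, adjusted p = 0.0239). An adjusted p under 0.05, whatever the fold, was reached by 27.2% of the 169 records. The excess of miR390 in HT was close to that of known miRNAs at large, since the median fold change was 1.33 over the 169 records and 1.29 over the 69 with at least 50 reads in both libraries together. Both values lie inside the CI of miR390a and of miR390b. Scaling by the summed deposited counts moved each log2 fold change by -0.38 and gave a fold change of 1.10 for miR390a and 1.18 for miR390b.

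Because miR390a and miR390b share a sequence, their reads cannot be assigned to separate loci, and whether they count the same reads in part cannot be told from the table. The reads of miR390b were 1.21 times those of miR390a in HT and 1.12 times in HS, an odds ratio of 1.08. Whether these ratios differ cannot be decided by a test, because a test would take the reads of the 2 records as separate. In the comparisons of the families below, the sequence was therefore counted once, by the exactly matching record miR390a.

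miR390a* was read 13 times in HT and 8 times in HS and stood at 0.480 and 0.305 TPM. Its fold change of 1.58 had a CI of 0.605 to 4.39 (p = 0.384, Fisher's exact test), so a difference between the libraries was not detectable at this depth.

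miR391 fell from 0.648 TPM in HS to 0.0739 TPM in HT, 8.76-fold lower in HT (95% CI 2.08 to 78.2). It was called lower in HT (p = 0.000337, Fisher's exact test, adjusted p = 0.00178). The width of the CI comes from the 2 reads in HT, which lie under the floor of 3 reads that a count of 0 still allows (0.111 TPM in HT and 0.114 TPM in HS).

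miR391* stood at 0.457 TPM in HS and had no read in HT, where the floor of 3 reads is 0.111 TPM. The exact 95% Poisson limit for no read there was 0.136 TPM. Set against the floor, the HS level was 4.12-fold higher, a value that leaves out the counting error in HS. The lower limit of the CI of the fold (HS/HT), which includes that error, was 2.87. miR391* was called lower in HT (p = 0.000203, Fisher's exact test, adjusted p = 0.00118). The miR391 and miR391* records, listed at separate positions, were thus called in the same direction, against 12.4% of the 169 records called in either direction, 4.14% called lower in HT and 8.28% called higher. At any p, 20.1% of the 169 records and 11.6% of the 95 with at least 10 reads were more than 2-fold lower in HT.

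**Figure D1:**
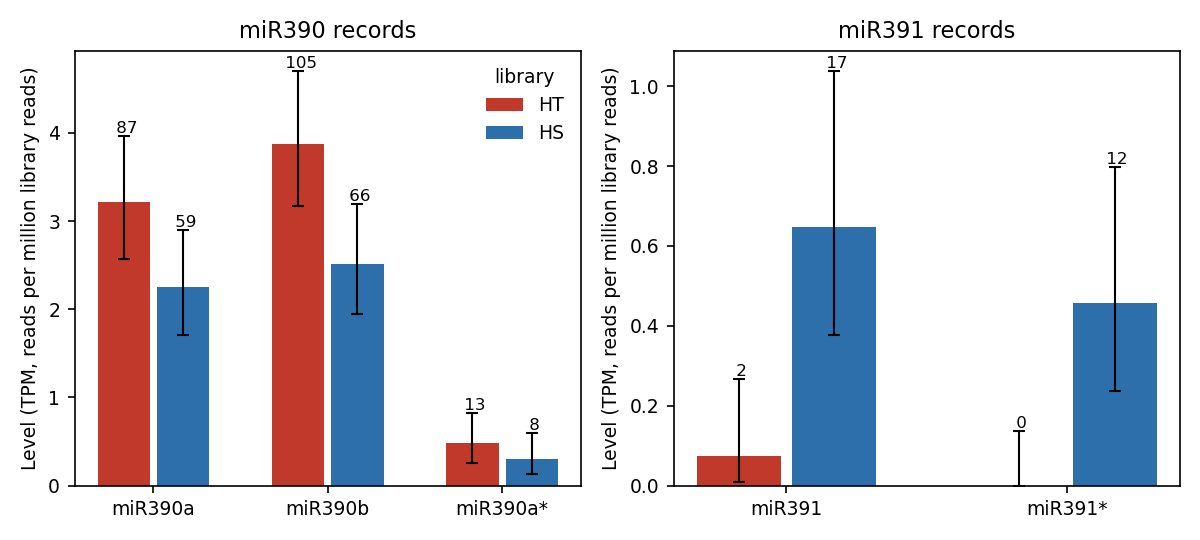
Level in TPM (reads per 1000000 reads of the library) of the 3 miR390 records (left) and the 2 miR391 records (right) in HT and HS, 1 library each. Bars give the level, whiskers the exact 95% Poisson interval for counting error, and the number above each bar its reads. The whiskers of HT and HS overlap for each miR390 record and do not overlap for miR391 (2 and 17 reads) or miR391* (0 and 12 reads).

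In abundance, miR390b ranked 36 and miR390a ranked 40 of the 169 records in HT, and 44 and 46 in HS. miR391 ranked 72 in HS and 111 in HT. In HS the levels fell in the order miR390b, miR390a, miR391, miR391* and miR390a*. The neighbours miR390b and miR390a (2.51 and 2.25 TPM) had overlapping intervals, as did miR391, miR391* and miR390a*, which lay between 0.305 and 0.648 TPM. In HT the order was miR390b, miR390a, miR390a*, miR391 and miR391*, and the interval of each of these overlapped that of its neighbour except between miR390a and miR390a*. The intervals of miR390a and miR390b lay above those of the other members in each library. The 5 members together held 0.539% of the deposited known miRNA reads in HT and 0.567% in HS.

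**Figure D2:**
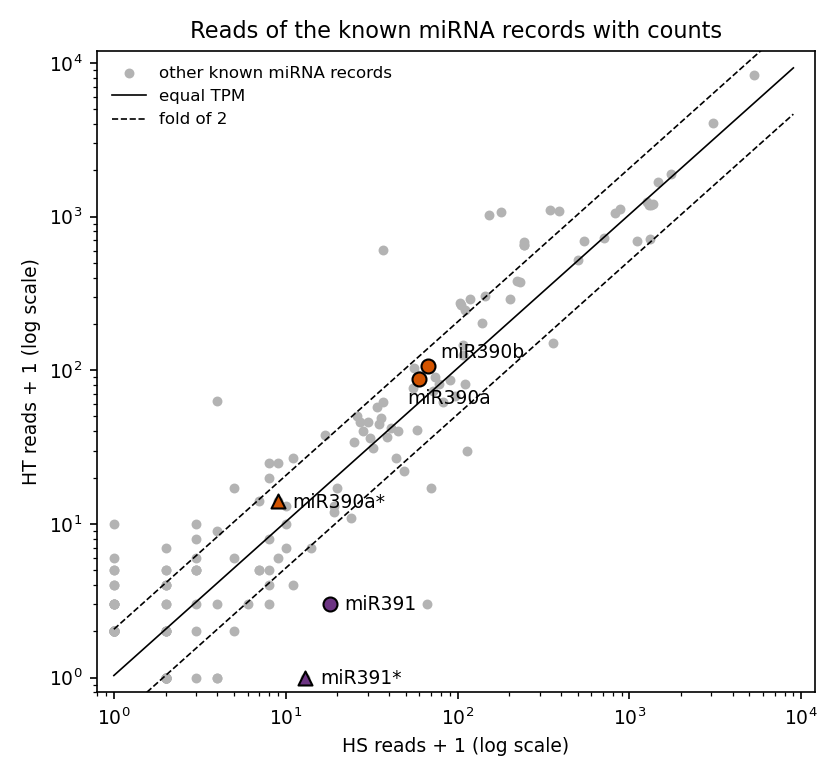
Reads in HT against reads in HS, each plus 1 read and on log axes, for the 169 known miRNA records. Circles are mature members, triangles miRNA* members, orange miR390 and purple miR391. The solid line marks equal TPM and the dashed lines a fold of 2. The 3 miR390 records lie between the dashed lines, while miR391 (2 and 17 reads) and miR391* (0 and 12 reads) lie below them.

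The families were compared directly, since the ratio of miR391 to miR390 reads within a library does not depend on how the libraries are scaled. In HT, 2 of the 89 reads of miR391 and miR390a were miR391 (2.25%, 95% CI 0.273 to 7.88, exact Clopper-Pearson). In HS, 17 of 76 were (22.4%, 95% CI 13.6 to 33.4). miR390a outnumbered miR391 43.5-fold in HT and 3.47-fold in HS. The odds of miR391 against miR390a were 12.5-fold higher in HS (95% CI 2.77 to 114.4, p = 4.5e-05, Fisher's exact test, adjusted p = 9.1e-05 over 2 comparisons).

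The miRNA* records differed in the same direction. In HT, 0 of 13 miRNA* reads were miR391*, and the upper limit of the 95% CI of that share was 24.7%. In HS, 12 of 20 were (60.0%, 95% CI 36.1 to 80.9), so that miR391* outnumbered miR390a* there. The miR390* sequence of A10 had no count and is not in these shares. The odds of miR391* were higher in HS (lower limit of the 95% CI of the odds ratio 3.17, p = 0.000513, Fisher's exact test, adjusted p = 0.000513 over 2 comparisons).

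**Figure D3:**
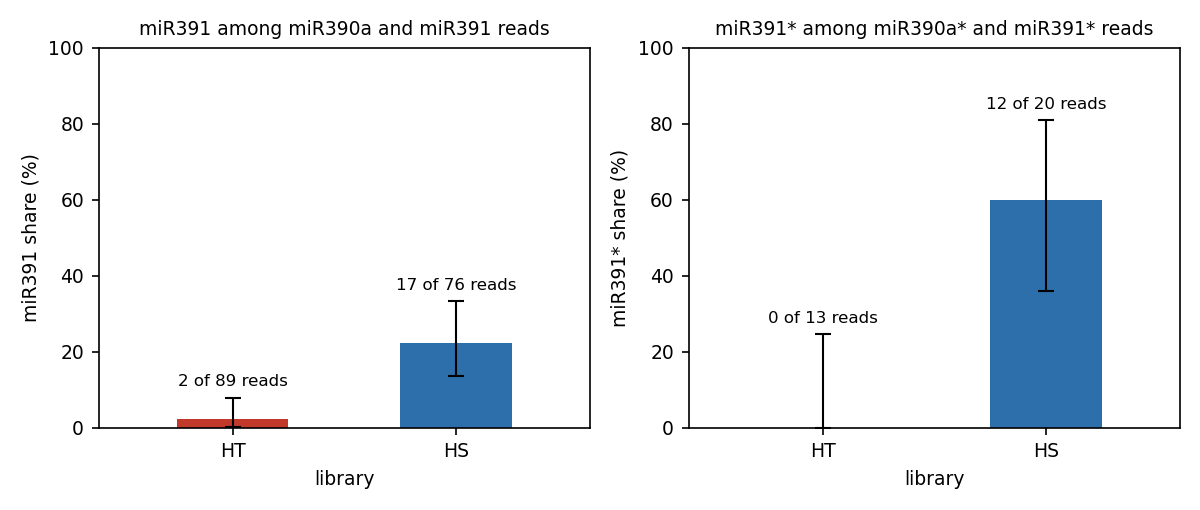
Share of miR391 among miR391 and miR390a reads (left) and of miR391* among miR391* and miR390a* reads (right) in HT and HS, in percent. Whiskers are exact 95% Clopper-Pearson intervals for counting error and the labels give the reads. The intervals of HT (2.25% and 0 of 13 reads) and HS (22.4% and 60.0%) do not overlap in either panel.

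Within a family, the share of miRNA* reads did not differ detectably between the libraries. For miR390, 13 of 100 reads in HT (13.0%, 95% CI 7.11 to 21.2) and 8 of 67 in HS (11.9%, 95% CI 5.30 to 22.2) were miRNA*. These are reads of miR390a and miR390a* only, since the miR390* sequence of A10 had no count. The odds ratio (HT/HS) was 1.10 with a 95% CI of 0.394 to 3.27 (p = 1, Fisher's exact test). For miR391, 12 of 29 reads in HS were miRNA* (41.4%, 95% CI 23.5 to 61.1), against 0 of 2 in HT. With 2 reads in HT the test could not separate the libraries (p = 0.510, Fisher's exact test).

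Other miRNAs of the pathway were read from lists by number. The auxin list holds miR160, miR167 and miR393, which target auxin response factors and the TIR1/AFB auxin receptors. None of its 14 records was called. Of the 14, 4 had an adjusted p under 0.05 a share close to the 27.2% of the 169 records, and all 4 were higher in HT, among them tae-miR167b (382 reads against 222 in HS) and bra-miR160a* (16 against 4 reads). The median log2 fold change of its 11 records with at least 10 reads was 0.37, beside 0.30 over all 95 such records, and turned to -0.012 with the summed deposited counts as library sizes. That scaling, a shift of -0.38, also exceeds the log2 fold change of 0.32 of ath-miR167d, which is 1 of the 4.

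A list of tasiRNA triggers and regulators of the small RNA machinery holds miR173 and miR828, which initiate tasiRNAs from other TAS genes, and miR162, miR168 and miR403, which target DCL1, AGO1 and AGO2. Of the 5 numbers, 3 had counts, in 5 records, and none was called. bdi-miR162 was read 711 times in HT and 1321 times in HS (fold change 0.522, adjusted p = 3.6e-45, Fisher's exact test), just short of the fold threshold. Scaling by the summed deposited counts moves its log2 fold change of -0.94 by -0.38, past that threshold. A fold threshold of 1.5 includes it as well, so its not being called depends on the setting. aau-miR168 had 37 and 16 reads (fold change 2.24, adjusted p = 0.0239, Fisher's exact test). The other miR168 record, osa-miR168a-3p, is named for the 3p arm, so it does not repeat that count. It had 41 and 40 reads (fold change 0.994). Of the 4 records with at least 10 reads, 1 was higher in HT and 3 were lower. The median log2 fold change over the 4 records with at least 10 reads was -0.28, beside the same 0.30.

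A list of miRNAs of the Brassicaceae lineage, to which miR391 is compared as a young family, had counts for 3 of 7 numbers, in 4 records. Of these, ath-miR400, which targets pentatricopeptide repeat (PPR) genes, was called lower in HT, where it had 16 reads against 69 in HS (fold change 0.225, adjusted p = 1.1e-08, Fisher's exact test). It was the 1 called record of the 4, beside 4.14% of the 169 records called lower in HT. ath-miR824, which targets the MADS-box gene AGL16, was read 724 times in HT and 706 times in HS (fold change 0.995). The median log2 fold change over the 3 records with at least 10 reads was -0.49, beside 0.30 over all 95 such records. That median is the value of aly-miR824*, with 80 reads in HT and 109 in HS (adjusted p = 0.0791, Fisher's exact test). ath-miR824 and aly-miR824* carry the same miRNA number, so the list rests on few separate miRNAs.

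By fold change alone, the records nearest to miR390a among 53 other mature records with at least 50 reads were vvi-miR169v (1.43), ath-miR159b (1.40) and ahy-miR156a (1.40). Mature here means a name without a star, so other records named for a 3p arm are included. For miR391, whose log2 fold change was -3.13, the nearest among 64 mature records with at least 10 reads were ath-miR400 (-2.15), osa-miR398b (-1.99), read 29 times in HT against 112 in HS, and smo-miR408 (-1.27), with 3 and 7 reads. Each of the 3 lay nearer to equal levels than miR391 did. Likeness here is the difference in log2 fold change over 2 libraries.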

How the data were processed

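For small RNA from shoot apexes of HT and HS, 1 library each, the authors removed adaptors, low-quality reads and reads outside 16 to 31 nt, discarded matches to other non-coding RNAs and searched the rest against plant miRNAs with fewer than 2 mismatches. The header names release 18 of miRBase and the description of the tables release 19. The deposited raw counts are whole numbers of reads per record and library. The deposited TPM values are counts per 1000000 reads of the library. Counts divided by TPM gave the same library size for each record with at least 20 reads, and these sizes were used here. The columns of the authors' own comparison (log2 fold changes, p-values and q-values) were not used.

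Quoted line breaks in the header were joined before reading. The unit is kept as other in the record of units, although the columns are counts and TPM, and no model with dispersion was fitted. Sequences were compared without gaps, with offsets of up to 5 bases. From the 2 tables of newly identified candidates only the sequences were used. Fisher's exact tests, Clopper-Pearson and Poisson intervals (95%) were computed with scipy 1.17.1 in Python 3.11.15. The tests and the fold intervals were tried on counts simulated with counting error only. Changes were planted there only in records with at least 50 reads, so calls at the depth of miR391 and miR391* were not checked. Records named in the text are the members, uncounted records at or near them or with their sequence, called or example records of the lists, and those nearest in fold. The examples bra-miR160a*, tae-miR167b, bdi-miR162, aau-miR168, osa-miR168a-3p, ath-miR824 and aly-miR824* were chosen after their values were seen. Members and lists were chosen with earlier results of these data known. Alternatives changed the library size, thresholds, minimum of reads, an added read and the counting of shared sequences.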

Additional observations from a re-analysis of the deposited data

How the results depend on the processing

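In each setting tried, miR391 and miR391* were the 2 called members, and no miR390 record was called. The fold change (HT/HS) ranged from 0.0875 to 0.162 for miR391, from 1.10 to 1.43 for miR390a and from 1.18 to 1.54 for miR390b. The adjusted p of miR390b was 0.630 when library size was the sum of the deposited counts, so that its value under 0.05 holds for some scalings only. The odds ratio (HT/HS) of miR391 against miR390 ranged from 0.0739 to 0.114, with p between 1.7e-05 and 0.000104 (Fisher's exact test). That of miR391* against miR390a* ranged from 0 to 0.0495, with p between 0.000513 and 0.0016, the highest with 1 read added to each cell. The summed reads of miR390a and miR390b, which may count some reads more than once, gave a fold change of 1.49, under the fold threshold. With the sum of the deposited counts, the median log2 fold change was -0.012 for the auxin list, which changed its direction, -0.66 for the tasiRNA and small RNA machinery list and -0.87 for the Brassicaceae list, because every fold moves by the same amount. The number of known miRNA records called was 21, of which 14 were higher in HT. With a fold threshold of 3 it was 10, of which 5 were higher. With the sum of the deposited counts 9 were called higher and 9 lower, against 7 lower with all library reads as library size. No paired analysis was possible because each genotype has 1 library. No replicate could be left out, and the low depth, with 2 reads of miR391 in HT and 12 of miR391* in HS, adds to the limits.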

Other observations

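Among the mature sequences, the nearest relative of either family in the table was the other. Among the 1390 records with other numbers, none was identical to miR390a at more than 13 bases, with esi-miR3454f alone at 13, or to miR391 at more than 14, a value reached by 5 names, ahy-miR156c among them. miR390a and miR391 shared 16. The miRNA* sequences had no such closeness, since miR390a* and miR391* shared 12 bases, while 4 other names, ath-miR2111a among them, shared 13 with miR390a* and 4, ath-miR413 among them, shared 12 with miR391*. None of the 54 newly identified candidate sequences shared more than 11 bases with either, or more than 10 with miR390a* or miR391*. These are ungapped matches, given as a description.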
